A study of Mus musculus with 17 samples.

Results

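Nerve injury was compared with sham surgery in the lumbar dorsal root ganglia of wild-type mice, using 10 of the 17 RNA-seq libraries of the series: all 5 libraries labelled CCI, for chronic constriction injury, and all 5 labelled Sham that carried the genotype WT. Members were chosen by these labels alone and by no measured value. All 10 libraries came from ganglia of lumbar levels L4 to L6 and had the entry day 30 in a field named batch, which the labels do not explain further. The other libraries carried the genotype KO, which the series title gives as a knockout of Twik-1, the potassium leak channel encoded by Kcnk1. They are used only to ask whether the injury response differed between genotypes. The labels give no strain, sex or age, name no nerve, and do not say whether 1 library held the ganglia of 1 animal or of several.

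A dorsal root ganglion holds the cell bodies of sensory neurons, each wrapped by satellite glia, together with Schwann cells, resident macrophages, vessels and connective tissue. In chronic constriction injury a nerve is loosely tied, which damages some axons, leaves others intact and produces lasting pain-related behaviour. Neurons whose axons are cut switch on transcription factors such as Atf3, Jun and Sox11, growth proteins such as Gap43 and Sprr1a, and neuropeptides such as galanin and neuropeptide Y. The same neurons are known to lower many ion channels and receptors. A whole ganglion mixes injured and spared neurons, so each value is an average over both.

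Counts assigned to genes came to 54489688 to 73584232 per sham library and 52523183 to 65709822 per CCI library. Markers of sensory neurons, satellite glia, Schwann cells and endothelium reached 1 CPM (the count scaled to library size) in all 10 libraries, as the tissue label implies. Markers of other tissues varied between libraries. Hba-a1 of red blood cells stood at 88.5 to 410.1 CPM after sham and 93.5 to 268 CPM after CCI, Mobp of oligodendrocytes at 1.38 to 66.9 and 1.39 to 6.45 CPM, and Acta1 of skeletal muscle at 1.04 to 92.8 and 3.26 to 37.8 CPM. Opalin of oligodendrocytes, Tyr of pigment cells and Hbb-bs of red blood cells reached at most 0.231, 0.0954 and 0.111 CPM. The part of such RNA in the results was not tested. The number in the names of the deposited tables was one for all sham libraries and another for the CCI libraries. Its meaning is not given, so whatever it stands for cannot be told apart from the injury. Kcnk1 itself, present in wild-type mice, stood at 128 ± 19 CPM after sham and 114 ± 6.85 CPM after CCI (SD, n = 5 each), with an edgeR adjusted p of 0.435. Kcnk1 passed without sham library 3 (adjusted p = 0.00899). Throughout, the error is the SD over the 5 libraries of a group for CPM values and the standard error (SE) of the fit for log2 changes. Ddx3y, on the Y chromosome, was read at 52.6 to 61.8 CPM in all 10 libraries, and Xist at no more than 0.278 CPM.

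More genes were higher than lower after injury, and the rises were larger. Of 20269 genes tested, 697 (3.44%) were higher and 351 (1.73%) were lower after CCI, together 5.17%, at a Benjamini-Hochberg adjusted p under 0.05 in edgeR's quasi-likelihood test. The median log2 fold change was 0.55 among the genes that rose and -0.32 among those that fell, against -0.01 over all tested genes. A change of at least 2-fold was reached by 193 genes upward and 21 downward, 1.06% of those tested, and at least 8-fold by 59 upward and 0 downward. The genes that rose had a median sham level of 20.9 CPM and those that fell one of 58.3 CPM. Every CCI value lay outside the sham range for 523 of the genes that rose and 197 of those that fell, where 5.26% of all tested genes showed such a separation. Protein-coding genes made up 659 of the rises and 338 of the falls, and long non-coding RNAs (lncRNAs) 34 and 12. Counts of list members below are to be set beside the 3.44% higher and 1.73% lower over all tested genes.

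**Figure D1:**
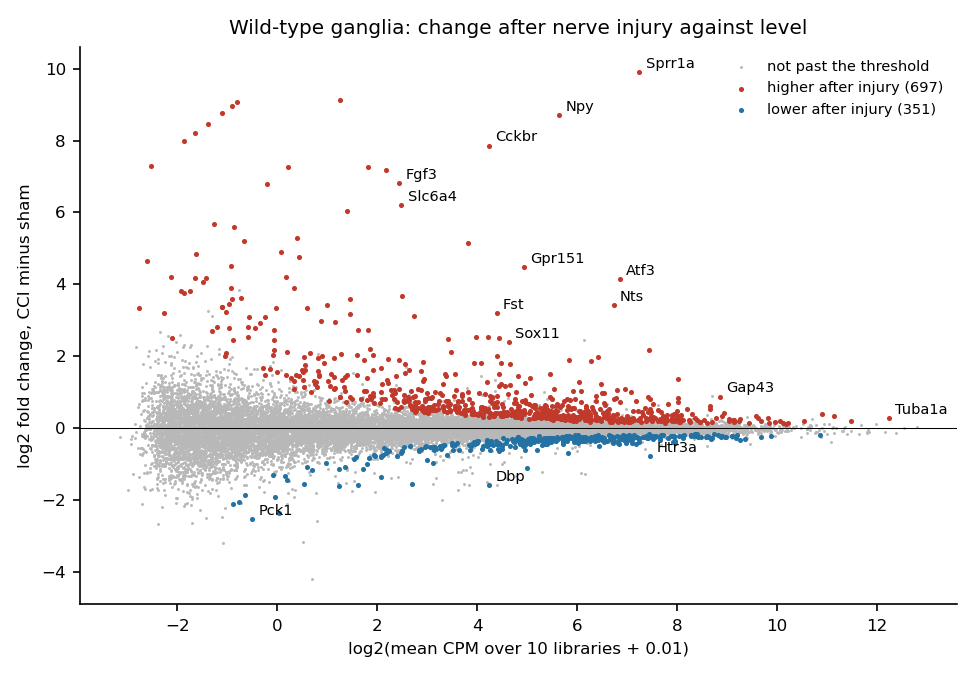
Log2 fold change after injury (vertical axis, CCI minus sham) against the log2 of the mean CPM over the 10 libraries plus 0.01 (horizontal axis), 1 point per tested gene. The 697 genes higher after injury (red) reach a log2 change of 9.90 for Sprr1a, while the 351 lower genes (blue) lie mostly close to 0.

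Sprr1a, a small proline-rich protein of skin that regrowing sensory axons also make, had the largest log2 change of all genes that passed. Its sham libraries held 0.0184, 0.212, 0.540, 0.450 and 0.313 CPM, and its CCI libraries 292, 369, 182, 334 and 343 CPM, a log2 change of 9.90 ± 0.40 (SE) with an edgeR adjusted p of 4.75e-06. All CCI libraries were high, and the lowest of them, library 3, still lay far above the highest sham library. Lipn, a lipase of the skin barrier, had 2 counts over all sham libraries and 1417 over the CCI libraries, a ratio of 735 with an exact 95% interval from 203 to 6072 that covers counting error only. Sprr1b, the neighbour of Sprr1a in the same gene cluster, had 0 and 306 counts, at least 106-fold higher against a floor of 3 counts over the sham group, and the uncharacterised 1700042G15Rik 0 and 333 counts, at least 115-fold higher. For genes this close to 0 after sham the fitted log2 change depends on the prior count added in the fit.

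The promoters of 6 genes are printed here because they carry short motifs named for factors whose own transcripts changed: AP-1, bound by Jun, Fosl2 and Atf3 among others (TGACTCA), the cAMP response element or CRE (TGACGTCA), the E-box read by the clock proteins (CACGTG), and the D-box read by Dbp, Tef and Nfil3 (TTANGTAA). Each runs 5′ to 3′ on the gene's own strand from 250 bases before the annotated transcription start to 20 bases into the transcript (GRCm39, GENCODE M39), in lower case with the motif in capitals, and both strands were searched, with the match written as it reads on the gene's strand. TGAGTCA is the AP-1 motif on the opposite strand. Sprr1a and Lipn, with the largest fitted log2 changes, and the neuropeptide gene Nts carry AP-1 matches. Ucn, which encodes a stress peptide, carries the CRE, and Ciart and Per3, clock genes that fell, carry E-boxes or D-boxes.
Sprr1a (chr3:92393189-92393458, minus strand): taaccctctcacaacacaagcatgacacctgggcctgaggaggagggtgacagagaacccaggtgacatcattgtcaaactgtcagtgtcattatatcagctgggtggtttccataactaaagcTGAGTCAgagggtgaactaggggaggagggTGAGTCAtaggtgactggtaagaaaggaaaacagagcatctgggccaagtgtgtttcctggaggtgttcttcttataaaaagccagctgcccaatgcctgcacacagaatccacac
Lipn (chr19:34044508-34044777, plus strand): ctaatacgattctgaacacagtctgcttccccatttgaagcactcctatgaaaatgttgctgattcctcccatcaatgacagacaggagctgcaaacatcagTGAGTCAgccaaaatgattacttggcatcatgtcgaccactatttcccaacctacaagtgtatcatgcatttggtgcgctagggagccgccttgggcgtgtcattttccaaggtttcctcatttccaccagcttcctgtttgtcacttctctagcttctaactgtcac
Nts (chr10:102326328-102326597, minus strand): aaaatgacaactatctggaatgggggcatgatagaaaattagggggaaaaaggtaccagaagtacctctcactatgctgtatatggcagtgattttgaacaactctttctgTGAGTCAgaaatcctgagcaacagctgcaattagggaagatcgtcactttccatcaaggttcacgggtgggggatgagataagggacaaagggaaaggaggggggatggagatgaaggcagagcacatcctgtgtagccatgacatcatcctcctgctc
Ucn (chr5:31296212-31296481, minus strand): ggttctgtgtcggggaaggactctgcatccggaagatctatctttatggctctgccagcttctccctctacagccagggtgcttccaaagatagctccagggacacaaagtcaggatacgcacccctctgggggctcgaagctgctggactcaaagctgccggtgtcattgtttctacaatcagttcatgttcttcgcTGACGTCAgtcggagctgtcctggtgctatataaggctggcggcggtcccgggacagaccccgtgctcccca
Ciart (chr3:95789537-95789806, minus strand): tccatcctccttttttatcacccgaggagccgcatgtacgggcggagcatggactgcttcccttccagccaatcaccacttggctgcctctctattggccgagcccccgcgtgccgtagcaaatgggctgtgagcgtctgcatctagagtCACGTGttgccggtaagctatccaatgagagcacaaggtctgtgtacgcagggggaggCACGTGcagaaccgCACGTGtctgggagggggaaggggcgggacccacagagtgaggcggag
Per3 (chr4:151129121-151129390, minus strand): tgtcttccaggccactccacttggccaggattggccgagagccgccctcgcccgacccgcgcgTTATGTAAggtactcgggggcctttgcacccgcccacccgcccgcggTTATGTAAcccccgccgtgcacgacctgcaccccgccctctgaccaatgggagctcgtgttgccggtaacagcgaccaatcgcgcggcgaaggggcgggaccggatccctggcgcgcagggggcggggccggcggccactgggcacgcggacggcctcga
The AP-1 matches begin 126 and 96 bases before the start of Sprr1a, 148 before that of Lipn and 139 before that of Nts. Among protein-coding genes, the AP-1 motif lay in this window in 6.98% of the 659 that rose, 2.96% of the 338 that fell and 3.57% of all 15216 tested. The CRE lay in 2.88%, 1.18% and 2.66%, the E-box in 7.89%, 10.1% and 8.36%, and the D-box in 0.607%, 1.48% and 1.57%. These are descriptions of letters in one window, and no binding was measured. The windows of Atf3, Npy, Gal, Dbp and Nr1d1 held none of the 4 motifs.

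Among 24 transcription factors tied to sensory axon regeneration, 9 rose and 1 fell, with a median log2 change of 0.20. Atf3, a stress-induced bZIP factor used as a marker of injured sensory neurons, stood at 16.9, 10.6, 15.1, 9.40 and 9.75 CPM in the sham libraries and 209, 250.2, 108, 276 and 255 CPM in the CCI libraries. The gene lies on chromosome 1 (GRCm39, 190902493 to 190950241). The groups were far apart, with library 3 the lowest after CCI, and the log2 change was 4.16 ± 0.32 (edgeR adjusted p = 0.000182). Sox11, a growth-associated HMG-box factor, rose from 7.89 ± 2.06 to 41.6 ± 9.12 CPM (log2 2.40 ± 0.21). Jun, the partner with which Atf3 can form AP-1 dimers, rose from 77 ± 6.20 to 136 ± 21.2 CPM, and Fosl2, another AP-1 member, from 4.71 ± 0.761 to 9.93 ± 1.36 CPM. Other rises were those of Smad1, the effector of BMP signalling (log2 0.42 ± 0.07), Nfil3 (0.86 ± 0.16), Klf6 (0.34 ± 0.07), Crem (0.51 ± 0.10) and Bach1 (0.93 ± 0.20). Runx1, which specifies non-peptidergic nociceptors, was the member that fell (log2 -0.31 ± 0.07, lost without CCI 5 or sham 4, adjusted p up to 0.0635). Here and below, a call lost without named libraries missed the threshold when any 1 of them was left out, and the fit over all 17 libraries adds the 7 knockout-labelled libraries, so that all groups share 1 estimate of the spread. Stat3, which is activated mainly by phosphorylation, stood at 499 ± 37.8 and 535 ± 13.1 CPM and did not pass (edgeR adjusted p = 0.332). Crem and Runx1 did not pass in the edgeR fit over all 17 libraries (adjusted p = 0.0665 and 0.178).

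Genes of axon regrowth were the list with the largest share changed: 27 of 42 rose and 0 fell (median log2 0.33), and 21 of the calls held when any 1 library was left out. Gap43, a growth-cone protein, stood at 278, 335, 384, 307 and 326 CPM after sham and 616, 625, 493, 632 and 638 CPM after CCI. The groups did not overlap, and the log2 change was 0.88 ± 0.09 (edgeR adjusted p = 0.000119). Itga7, the laminin-binding integrin subunit, rose from 185 ± 7.51 to 334 ± 30.9 CPM, among the 10 rises with the smallest p (log2 0.85 ± 0.06, edgeR adjusted p = 5.15e-08). Ecel1, a neuronal endopeptidase-like protein, rose from 0.754 ± 0.644 to 27.5 ± 9.75 CPM, and Lmo7, an actin-linked LIM protein, from 4.60 ± 1.53 to 27 ± 5.97 CPM.

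Microtubule genes led the gains in CPM. Tuba1a, the α-tubulin of growing neurons, gained 977 CPM, Tubb3 gained 552, Stmn2, a tubulin-binding protein of axons, gained 520 and Tubb2a gained 219, a call lost without CCI 1, 4 or 5, adjusted p up to 0.0634. Per kilobase of merged exons, the scale on which genes can be set beside each other, the gains were 539 CPM for Tuba1a, 184 for Sprr1a, 181 for Gal, 172 for Tubb3 and 145 for Gap43. The relative changes of the genes with the largest gains were small (log2 0.29 ± 0.04 for Tuba1a, 0.35 ± 0.05 for Tubb3, 0.39 ± 0.04 for Stmn2). Tubb6, another β-tubulin, rose from 5.47 ± 1.02 to 31.8 ± 8.76 CPM (log2 2.54 ± 0.22). Of 18 neurofilament and transport genes 0 rose and 1 fell, a share of 5.56%, near the 5.17% called over all tested genes. The gene that fell was Kif5b, a kinesin heavy chain (log2 -0.15 ± 0.04, lost without CCI 1, 2, 4 or 5 or sham 1, 3, 4 or 5, adjusted p up to 0.105). The neurofilament gene Nefl stood at 3801 ± 604 and 3545 ± 234 CPM (edgeR adjusted p = 0.745). Kif5b missed the threshold in the edgeR fit over all 17 libraries (adjusted p = 0.0863). The call of Kif5b was lost in edgeR without a low-count filter (adjusted p = 0.104).

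**Figure D2:**
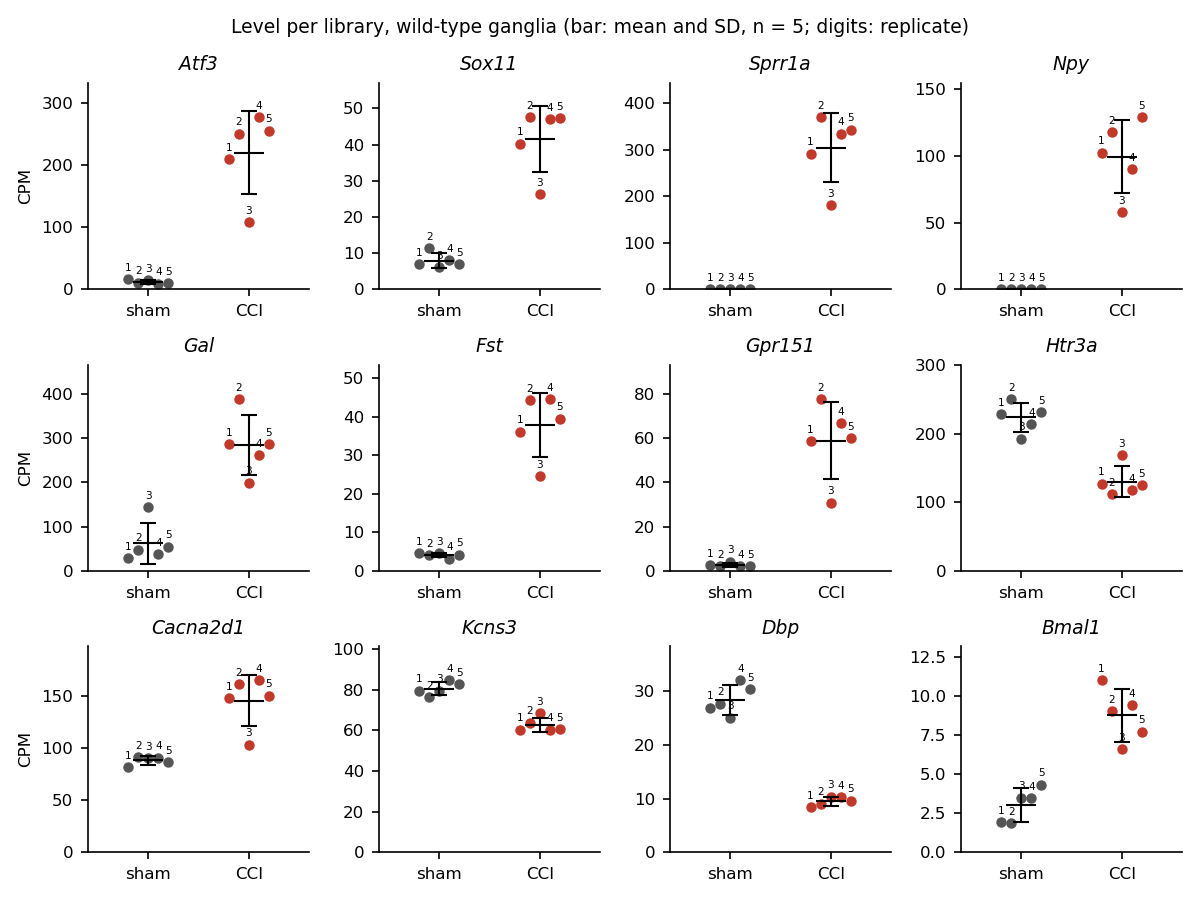
CPM in each library (vertical axes from 0, linear) for 12 genes in the 5 sham (grey) and 5 CCI (red) libraries, with the mean and SD as bars and the replicate number beside each point. CCI library 3 is the CCI library nearest to the sham libraries for Atf3, Sprr1a, Npy and Htr3a, and sham library 3 is the highest sham library for Gal at 144 CPM.

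Neuropeptides changed in a few members by large factors. Of 24 genes for neuropeptides and their processing, 6 rose and 1 fell, while the list's median log2 change was -0.06. Npy, which encodes neuropeptide Y, went from 0.387, 0.106, 0.304, 0.0545 and 0.362 CPM after sham to 102, 118, 57.9, 90.1 and 129 CPM after CCI. It was barely present in any sham library and high in every CCI library (log2 8.71 ± 0.41, edgeR adjusted p = 1.02e-05). Nts, the gene of neurotensin, rose from 18.2 ± 8.0 to 195 ± 49.8 CPM (log2 3.42 ± 0.34), and Vgf, a secreted granin-like protein, from 121 ± 15.8 to 221 ± 5.64 CPM. Vgf did not pass in the edgeR fit over all 17 libraries (adjusted p = 0.278).

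Gal, which encodes galanin, held 29.1, 48.1, 144, 38.5 and 54.8 CPM in the sham libraries and 287, 389, 199.6, 261 and 287 CPM in the CCI libraries. Sham library 3 was the highest sham library and CCI library 3 the lowest CCI library, and the groups did not overlap. The log2 change was 2.18 ± 0.46 with an edgeR adjusted p of 0.032, a call lost without CCI 1, 2, 4 or 5 or sham 1, 2, 4 or 5, adjusted p up to 0.0837. Ucn and Crh, which encode urocortin and corticotropin-releasing hormone, were near 0 after sham and rose to 5.17 ± 2.05 and 2.57 ± 1.21 CPM. The nociceptor peptide genes did not pass: Calca, the CGRP gene, stood at 2452 ± 532 and 1893 ± 286 CPM and Tac1, the substance P gene, at 452 ± 126 and 322 ± 57.4 CPM (edgeR adjusted p = 0.293 and 0.257). Both passed, as lower, in edgeR with the replicate number as a block (adjusted p = 0.0105 and 0.0079). Scg2, a granin, fell (log2 -0.25 ± 0.06, lost without CCI 2, 4 or 5 or sham 4, adjusted p up to 0.0658). Scg2 missed the threshold in the edgeR fit over all 17 libraries (adjusted p = 0.0616).

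Among 26 neuropeptide receptor genes 3 rose and 2 fell, 19.2% against the 5.17% called over all tested genes. Cckbr, the receptor for cholecystokinin and gastrin, rose from 0.170 ± 0.227 to 37.7 ± 12 CPM (log2 7.86 ± 0.70, edgeR adjusted p = 0.000441), and Cckar, the other cholecystokinin receptor, from 40.4 ± 3.59 to 64 ± 5.47 CPM. Npy1r, a receptor for neuropeptide Y, had 20.3, 19, 15.9, 18.8 and 17.4 CPM after sham and 43.8, 47.5, 33, 51 and 41.9 CPM after CCI. It was higher in every CCI library, as its ligand gene was (log2 1.25 ± 0.10). Gpr151, a galanin-receptor-like orphan receptor of sensory neurons, rose from 2.64 ± 0.861 to 58.7 ± 17.4 CPM (log2 4.48 ± 0.32). Vipr2, a receptor for vasoactive intestinal peptide, fell (log2 -2.06 ± 0.56, lost without CCI 1, 2, 4 or 5 or sham 1 or 4, adjusted p up to 0.157), as did the neurotensin receptor Ntsr2 (log2 -0.68 ± 0.19, lost without CCI 1, 2, 4 or 5 or sham 1, 2, 4 or 5, adjusted p up to 0.13). The calls of Cckar, Vipr2 and Ntsr2 were lost in the edgeR fit over all 17 libraries (adjusted p = 0.0737, 0.141 and 0.173). Cckbr and Vipr2 did not pass with limma-voom (adjusted p = 0.0853 and 0.0518).

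Most growth factor and cytokine genes did not pass, with 7 of 38 ligands higher and 1 lower (median log2 0.19). Fgf3, a fibroblast growth factor best known from embryonic development, was at 0.147, 0.106, 0.135, 0.0681 and 0.0165 CPM after sham and 9.59, 11.7, 4.55, 15.4 and 12.2 CPM after CCI. It was present in every CCI library and near 0 in every sham library (log2 6.82 ± 0.43, edgeR adjusted p = 1.20e-06). Btc, an EGF-family ligand, rose from 1.49 ± 0.387 to 6.06 ± 2.47 CPM. Bdnf, the neurotrophin, rose by log2 0.54 ± 0.09, Tgfa by 0.45 ± 0.10 and Il34, a ligand of the macrophage receptor Csf1r, by 0.32 ± 0.07. Csf1, the other Csf1r ligand, stood at 32.1, 14.9, 15.8, 14.1 and 15.4 CPM and 45.4, 55.7, 31.6, 56.5 and 52.3 CPM. Sham library 1 was higher than CCI library 3, so the groups overlapped, and the call (edgeR adjusted p = 0.0248) was lost without CCI 1, 2, 4 or 5 or sham 2, 3, 4 or 5, adjusted p up to 0.0734. Bdnf missed the threshold in the edgeR fit over all 17 libraries (adjusted p = 0.611).

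Of 38 growth factor and cytokine receptors 6 rose and 3 fell, and the GDNF-family co-receptors split. Gfra1, which binds GDNF, rose from 89.5 ± 11.9 to 182 ± 28.7 CPM (log2 1.02 ± 0.13). Gfra2, which binds neurturin, fell from 144 ± 16.2 to 110.0 ± 10.2 CPM (log2 -0.39 ± 0.08), and Gfra4 fell too (log2 -0.33 ± 0.09, lost without CCI 1, 2, 4 or 5 or sham 1 or 2, adjusted p up to 0.0873). Erbb2 and Erbb3, which together receive neuregulin in Schwann cells, rose by log2 0.58 ± 0.11 and 0.47 ± 0.10. The call of Gfra2 was lost in the edgeR fit over all 17 libraries (adjusted p = 0.0679).

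Genes of the TGF-β superfamily changed in both directions. Fst, which encodes the activin-binding protein follistatin, had 4.57, 4.06, 4.56, 3.16 and 4.23 CPM after sham and 36.2, 44.4, 24.6, 44.7 and 39.5 CPM after CCI, again without overlap and among the 10 rises with the smallest p (log2 3.20 ± 0.16, edgeR adjusted p = 2.31e-08). Acvr1, a type I receptor for activins and BMPs, rose from 13.2 ± 2.67 to 30.1 ± 6.02 CPM. In the list of 16 BMP Smads, antagonists and targets, Smad1 rose and 5 members fell. The inhibitory Smads fell, Smad6 from 4.49 ± 1.01 to 2.07 ± 0.704 CPM and Smad7 from 5.45 ± 0.740 to 3.25 ± 0.581 CPM, as did Id1, a target of BMP signalling (log2 -0.73 ± 0.16). Nog and Bambi, an antagonist and a decoy receptor, fell by 0.64 and 0.38 on the log2 scale. The call of Nog was lost without CCI 1, 2, 4 or 5 or sham 1 or 4, adjusted p up to 0.0918, and that of Bambi lost without CCI 1, 4 or 5 or sham 1, 2, 4 or 5, adjusted p up to 0.152. Id3 stood at 74.2 ± 13.4 and 74.7 ± 5.42 CPM (edgeR adjusted p = 0.982). Cyp26a1, the enzyme that degrades retinoic acid, was the 1 called gene among 18 of that pathway, at 0.0622 ± 0.0872 CPM after sham and 9.01 ± 2.27 CPM after CCI. That is 5.56% of the pathway list, near the 5.17% called over all tested genes. Nog and Bambi did not pass in the edgeR fit over all 17 libraries (adjusted p = 0.0676 and 0.0565).

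**Figure D3:**
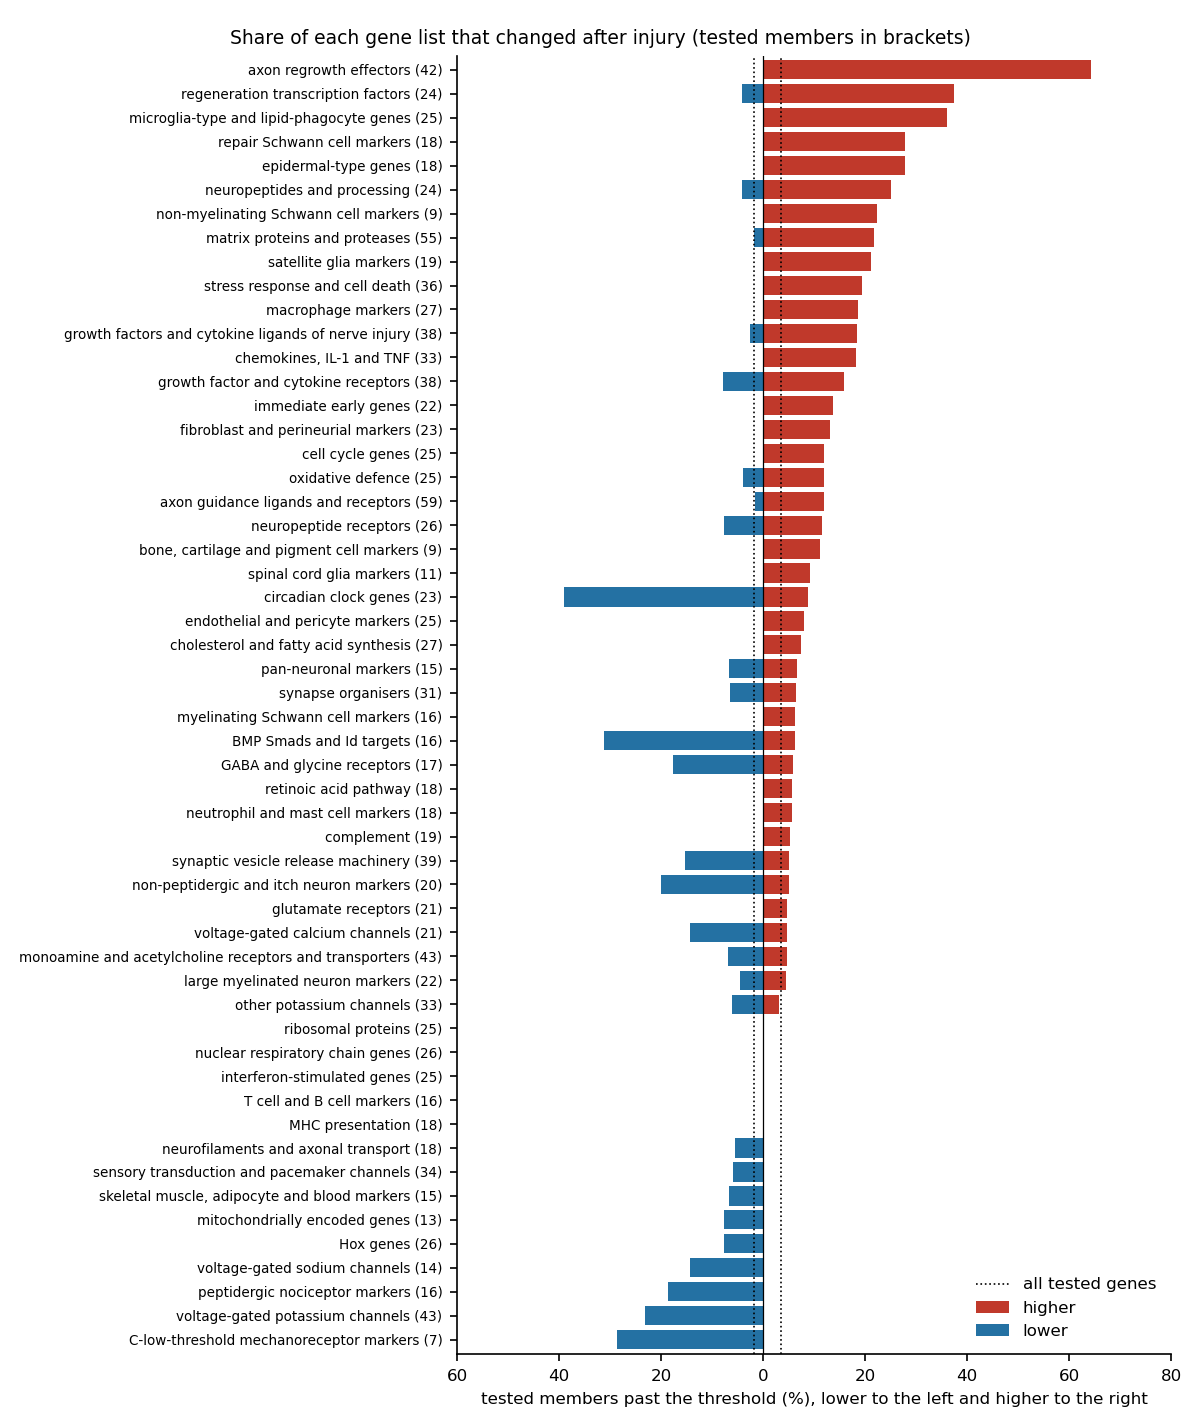
Share of the tested members of each of 54 gene lists that rose (red, to the right) or fell (blue, to the left) after injury, in percent, with the number tested in brackets. Dotted lines mark the shares over all tested genes, 3.44% higher and 1.73% lower. Axon regrowth effectors reach furthest to the right and circadian clock genes furthest to the left.

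Voltage-gated potassium channel genes fell by small amounts. Of 43 such genes 0 rose and 10 fell, with a median log2 change of -0.24 and 4 calls held without any 1 library. Kcns3, a silent subunit that modifies Kv2 channels, had 79.5, 76.3, 79.5, 84.6 and 82.7 CPM after sham and 60.4, 63.7, 68.3, 60.3 and 60.5 CPM after CCI. Every CCI library was below every sham library (log2 -0.36 ± 0.05, edgeR adjusted p = 0.000415). Kcnb2, a Kv2 subunit, fell by 0.27 on the log2 scale, and Kcnip3, a Kv4-associated calcium sensor, by 0.25. Kcna2, the juxtaparanodal Kv1 subunit, fell (log2 -0.24 ± 0.06, lost without CCI 1 or 2, adjusted p up to 0.0598). Kcna1 stood at 196 ± 19.4 and 189.8 ± 10.5 CPM and did not pass (edgeR adjusted p = 0.815). Fewer cells of a type and less RNA per cell cannot be told apart in whole ganglia, here and in the results that follow.

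Both sodium channel genes that fell, of 14 tested, belong to nociceptors. Scn9a, encoding Nav1.7, went from 221 ± 14.1 to 182 ± 7.50 CPM (log2 -0.28 ± 0.05), and Scn10a, encoding Nav1.8, from 636 ± 51.9 to 523 ± 47.2 CPM (log2 -0.28 ± 0.06), the latter a call lost without CCI 5, adjusted p 0.0509. Scn11a, encoding Nav1.9, stood at 358 ± 41.9 and 316 ± 22.4 CPM and did not pass (edgeR adjusted p = 0.197). Scn11a passed in edgeR without a low-count filter (adjusted p = 0.0281), with the replicate number as a block (adjusted p = 0.0469) and without sham library 2 (adjusted p = 0.049). Cacna2d1, the α2δ-1 calcium channel subunit that gabapentin binds, moved the other way. It had 81.6, 91.7, 90.3, 90.8 and 86.4 CPM after sham and 148, 161, 103, 165 and 150.5 CPM after CCI, with CCI library 3 the lowest of the CCI libraries and above every sham library (log2 0.72 ± 0.11, edgeR adjusted p = 0.00194). Its paralogue Cacna2d2 fell from 13.2 ± 1.46 to 9.52 ± 0.834 CPM, a call lost without CCI 2 or 5 or sham 1, adjusted p up to 0.0711. Cacna2d2 missed the threshold in the edgeR fit over all 17 libraries (adjusted p = 0.107).

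Among 33 other potassium channels, Kcnk16, a leak channel known from pancreas, rose from 0.0634 ± 0.0457 to 2.55 ± 1.29 CPM (log2 5.30 ± 0.51, edgeR adjusted p = 4.31e-06). Kcnk18, the leak channel TRESK, fell (log2 -0.50 ± 0.14, lost without CCI 1, 2, 4 or 5 or sham 1, 3, 4 or 5, adjusted p up to 0.119), as did Kcnmb1, a BK channel subunit (log2 -0.36 ± 0.09, lost without CCI 1, 2, 4 or 5 or sham 1, 2, 4 or 5, adjusted p up to 0.109). Of the sensory transduction and pacemaker channels, 2 of 34 fell and 0 rose, a share of 5.88%, near the 5.17% called over all tested genes. The falls were those of the oxidant-sensitive Trpm2 (log2 -0.38 ± 0.09, lost without CCI 2, adjusted p 0.0503) and the touch channel Piezo2 (log2 -0.20 ± 0.05, lost without CCI 1, 2, 4 or 5 or sham 4, adjusted p up to 0.0755). The capsaicin receptor gene Trpv1 stood at 178 ± 64.1 and 137 ± 14.8 CPM (edgeR adjusted p = 0.463), and the pacemaker gene Hcn2 at 91.7 ± 11.2 and 77.1 ± 4.81 CPM (edgeR adjusted p = 0.0544). Hcn2 passed with DESeq2 (adjusted p = 0.0265), with limma-voom (adjusted p = 0.0171), in edgeR without a low-count filter (adjusted p = 0.00646), without CCI library 3 (adjusted p = 0.0237) and without sham library 3 (adjusted p = 0.016). Pirt, a membrane protein that modulates TRPV1, fell from 896 ± 79.5 to 752 ± 32.2 CPM. The calls of Kcnk18, Kcnmb1 and Piezo2 were lost in the edgeR fit over all 17 libraries (adjusted p = 0.0563, 0.153 and 0.0524). Kcnk18 did not pass in edgeR without a low-count filter (adjusted p = 0.0782).

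Transmitter receptors included the ionotropic serotonin receptor Htr3a, at 229, 250.4, 193, 214 and 231 CPM after sham and 127, 112, 168, 117 and 125 CPM after CCI. No CCI library reached the lowest sham library (log2 -0.78 ± 0.11, edgeR adjusted p = 0.00194). Slc6a4, the serotonin transporter, rose from 0.153 ± 0.128 to 11 ± 3.12 CPM (log2 6.21 ± 0.56). The nicotinic subunit genes Chrna7 and Chrna6 fell by 0.48 and 0.69 on the log2 scale, the latter call being lost without CCI 1, 2, 4 or 5 or sham 2 or 4, adjusted p up to 0.101. Among 17 GABA and glycine receptor genes, Gabbr2 fell from 152 ± 7.45 to 129 ± 4.56 CPM and Gabra5 rose from 5.85 ± 0.742 to 9.07 ± 1.05 CPM. Gabrb2 fell (log2 -0.74 ± 0.21, lost without CCI 1, 2, 4 or 5 or sham 1, 2, 4 or 5, adjusted p up to 0.131). Chrna6, Gabra5 and Gabrb2 missed the threshold in the edgeR fit over all 17 libraries (adjusted p = 0.0641, 0.241 and 0.0785).

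Of 39 genes of vesicle release 6 fell and 2 rose (median log2 -0.13), 20.5% against the 5.17% called over all tested genes. Syt13, an atypical synaptotagmin, fell from 3.21 ± 0.805 to 1.46 ± 0.225 CPM (log2 -1.13 ± 0.23), the presynaptic scaffold gene Pclo by 0.31, the complexin gene Cplx2 by 0.36 and the synapsin gene Syn2 by 0.25 on the log2 scale. Syt17 rose from 3.22 ± 1.04 to 6.79 ± 1.69 CPM. Among synapse organisers Cbln2 rose (log2 0.74 ± 0.13) and its presynaptic partner family member Nrxn3 fell (log2 -0.37 ± 0.07).

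**Figure D4:**
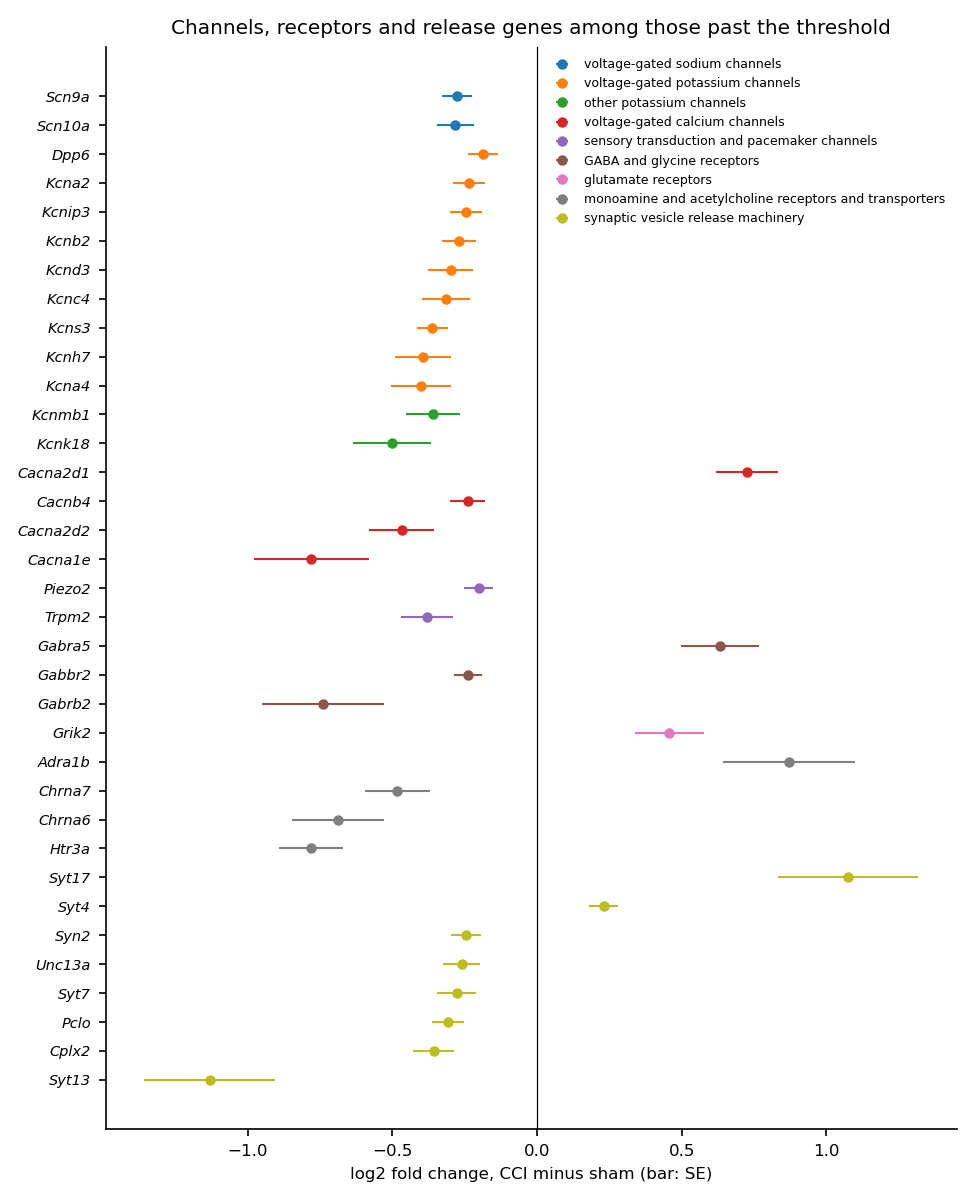
Log2 fold change after injury (horizontal axis, bars SE) of most of the ion channel, transmitter receptor and vesicle release genes past the threshold, coloured by list. Slc6a4 (log2 6.21) and Kcnk16 (log2 5.30) lie beyond the plotted range and are left out. All voltage-gated potassium and sodium channel genes shown lie to the left of 0, and Cacna2d1 lies to the right.

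Of 59 axon guidance genes 7 rose and 1 fell, with a median log2 change of 0.03. That is 13.6% called, against 5.17% over all tested genes. Draxin, a secreted repulsive cue, had 0.663, 0.617, 0.489, 0.395 and 0.560 CPM after sham and 3.17, 7.30, 3.50, 6.01 and 4.72 CPM after CCI, with no overlap (log2 3.18 ± 0.27, edgeR adjusted p = 8.07e-07). Its locus overlaps Mad2l2, and without strand the reads in the stretch that the pair shares cannot be told apart. Sema6a, a transmembrane semaphorin, rose from 9.91 ± 0.955 to 34.8 ± 8.22 CPM. The plexin receptors split, with Plxnb3 and Plxna4 higher (log2 0.69 ± 0.09 and 0.42 ± 0.07) and Plxna2 lower (log2 -0.31 ± 0.07). The call of Plxna4 was lost in the edgeR fit over all 17 libraries (adjusted p = 0.289).

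Neuronal marker lists had a larger share called than the 5.17% over all tested genes. It was 13.3% for pan-neuronal, 18.8% for peptidergic, 25% for non-peptidergic and itch, 28.6% for C-low-threshold mechanoreceptor and 9.09% for large myelinated neuron markers. These shares rest on 2, 3, 5, 2 and 2 calls in that order, and some join rises and falls. Of the 2 C-low-threshold mechanoreceptor calls, among 7 tested, 0 held when any 1 library was left out. In the edgeR fit over all 17 libraries 0 of them passed. Of 15 pan-neuronal markers Tubb3 rose and Drgx fell (log2 -0.20 ± 0.05, lost without CCI 1, 2, 4 or 5 or sham 1, 3 or 4, adjusted p up to 0.112), and the median log2 change was -0.05. Peptidergic nociceptor markers had a median of -0.27, with 3 of 16 lower and 1 of these calls held without any 1 library. Prdm12, a transcription factor of the nociceptor lineage, had 297, 277, 283, 277 and 265 CPM after sham and 216, 219, 255, 209 and 189.8 CPM after CCI. All CCI libraries were lower than all sham libraries (log2 -0.36 ± 0.06). Reads in the stretch that Prdm12 shares with the overlapping Gm13425 cannot be told apart. Drgx did not pass in the edgeR fit over all 17 libraries (adjusted p = 0.12).

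Non-peptidergic and itch neuron markers had 4 of 20 members lower and Gfra1 higher. Those that fell were Gfra2, Il31ra and the itch receptors Mrgprb4 (lost without CCI 1 or 5 or sham 3, adjusted p up to 0.0675) and Mrgpra3 (lost without CCI 1, 4 or 5 or sham 1, 3 or 4, adjusted p up to 0.111). Il31ra, the receptor for the itch cytokine interleukin-31, fell by 0.40 on the log2 scale, a call lost without CCI 4 or 5, adjusted p up to 0.0589. The purinergic receptor gene P2rx3 stood at 75.5 ± 10.8 and 73.8 ± 3.23 CPM (edgeR adjusted p = 0.909). Among large myelinated neuron markers Calb1, a calcium buffer, fell (log2 -0.38 ± 0.07) and Spp1, which macrophages also make, rose (log2 0.43 ± 0.10, lost without CCI 1, 2, 4 or 5 or sham 1, 2 or 4, adjusted p up to 0.0906). Sums of the peptidergic markers ran from 5822 to 8263 CPM after sham, with sham library 3 the highest, and from 4699 to 6305 CPM after CCI. Of the falls in these marker lists, those of Mrgprb4, Mrgpra3 and Drgx were among the calls lost without that library. Il31ra, Mrgprb4 and Spp1 missed the threshold in the edgeR fit over all 17 libraries (adjusted p = 0.514, 0.058 and 0.0716).

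Some glial markers rose. Called as higher were 21.1% of the satellite glia markers, against 3.44% of all tested genes. Of 19 satellite glia markers 4 rose, among them Fabp7, a fatty acid-binding protein, from 329 ± 47.5 to 479 ± 43.1 CPM (log2 0.54 ± 0.09), Cdh19 (log2 0.55 ± 0.11) and Entpd2 (0.60 ± 0.14, lost without CCI 1, 2, 4 or 5 or sham 1, 2, 4 or 5, adjusted p up to 0.0969). Gja1, the gap junction gene of these cells, stood at 36.5 ± 5.82 and 36.7 ± 4.09 CPM (edgeR adjusted p = 0.988). Of 18 markers of repair Schwann cells 5 rose, but Gap43 and Jun among them are also neuronal. Sox10, the glial lineage factor, rose by log2 0.29 ± 0.06. Mbp, a myelin gene, stood at 1616 ± 307 and 1689 ± 239 CPM and did not pass (edgeR adjusted p = 0.904).

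Macrophage markers rose in part. Of 27 macrophage markers 5 rose and 0 fell, the change was positive in 22 of 27, and the median log2 change was 0.53. Over all tested genes, 3.44% rose and 47.0% had a positive change. Summed over the list, the level was 326 to 409 CPM after sham and 399 to 472 CPM after CCI, ranges that overlapped. Ms4a7, a tetraspan protein of resident macrophages, had 1.42, 1.34, 2.04, 1.34 and 0.890 CPM after sham and 4.41, 7.81, 2.75, 5.78 and 5.61 CPM after CCI, higher in every CCI library (log2 1.91 ± 0.27, edgeR adjusted p = 0.000188). Cx3cr1, the fractalkine receptor, rose from 1.56 ± 0.551 to 3.49 ± 0.894 CPM, and Adgre1, which encodes F4/80, by log2 0.81 ± 0.18. Csf1r, the receptor of Csf1 and Il34, rose by log2 0.90 ± 0.21 (lost without CCI 1, 2, 4 or 5 or sham 2, 3, 4 or 5, adjusted p up to 0.0949), and C1qa stood at 11.8 ± 5.02 and 22.3 ± 5.81 CPM without passing (edgeR adjusted p = 0.13). C1qa passed with DESeq2 (adjusted p = 0.0336) and without sham library 1 (adjusted p = 0.00459).

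Genes of microglia and of lipid-handling phagocytes had 9 of 25 members higher and 0 lower (median log2 0.43). Lgals3, the galectin of phagocytes that injured neurons also make, rose from 34.6 ± 3.27 to 138 ± 36.4 CPM (log2 1.99 ± 0.21). Plin2, a lipid droplet coat protein, rose from 79.3 ± 3.90 to 168 ± 28.6 CPM, Abca1, a cholesterol exporter, by log2 0.98 ± 0.11, and Trem2, a lipid-sensing receptor of macrophages, from 0.838 ± 0.219 to 2.95 ± 1.26 CPM. Ctsb, the lysosomal protease cathepsin B, gained 383 CPM (log2 0.19 ± 0.04).

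Mediators of inflammation rose in some members, and classic acute cytokines did not pass. In the chemokine, interleukin-1 and TNF family list 18.2% rose, against 3.44% of all tested genes. Among 33 chemokine, interleukin-1 and TNF family genes 6 rose, led by Tnfrsf12a, the TWEAK receptor, from 10.6 ± 1.03 to 25.9 ± 4.25 CPM, and by Il1r1 (log2 0.93 ± 0.12). Ccl2, a chemokine that draws monocytes, stood at 4.11 ± 2.14 and 4.56 ± 1.26 CPM, Il1b at 0.618 ± 0.339 and 0.902 ± 0.394 CPM and Il6 at 0.329 ± 0.250 and 0.535 ± 0.427 CPM, none past the threshold (edgeR adjusted p = 0.887, 0.667 and 0.749). None of 18 MHC genes, 25 interferon-stimulated genes or 16 lymphocyte markers passed the edgeR test, where 0, 0 and 2 had an unadjusted p under 0.05 and DESeq2 called 0 of each list and limma-voom 0, 0 and 1. Over all tested genes 5.17% were called, so 0 calls in lists this short is near that share. It does not show that these genes were unchanged. The interferon-stimulated genes summed to 2406 CPM in sham library 1, to 614 to 721 CPM in the other sham libraries and to 665 to 971 CPM in the CCI libraries. Of these 25 genes 0 had a positive change (median log2 -0.43). The MHC genes summed to 2045 CPM in sham library 1 and to 954 to 1136 CPM in the other sham libraries. In the CCI libraries they summed to 1187 to 1581 CPM.

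Matrix genes rose in 12 of 55 cases and fell in 1 (median log2 0.24). Col5a3, a chain of type V collagen, had 46.1, 43, 42.3, 47.8 and 45.5 CPM after sham and 71.4, 80.7, 67.7, 92.5 and 86.4 CPM after CCI, higher in every CCI library (log2 0.83 ± 0.08, edgeR adjusted p = 2.08e-06). The metalloproteinase genes Mmp16 and Mmp19 rose from 7.46 ± 1.34 to 26.4 ± 5.99 and from 0.991 ± 0.152 to 2.40 ± 0.220 CPM, and Adam8, a sheddase, from 11.2 ± 2.40 to 32 ± 7.51 CPM. Loxl2, a collagen cross-linking enzyme, rose by log2 2.21 ± 0.24, with an overlapping gene, R3hcc1, also higher. Tnc, encoding tenascin-C, held 2.12, 3.21, 8.94, 3.12 and 3.29 CPM and 16.4, 18, 7.61, 31.3 and 17.2 CPM. Sham library 3 lay above CCI library 3, and the call was lost without CCI 1, 2, 4 or 5 or sham 1, 2, 4 or 5, adjusted p up to 0.111. The call of Tnc was lost in edgeR without a low-count filter (adjusted p = 0.068).

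Of the vessel markers 2 of 25 were higher, and of the connective tissue markers 3 of 23. Both are larger shares than the 3.44% higher over all tested genes, but they rest on few calls. In each of these lists 1 call held when any 1 library was left out. Cldn5, the tight junction claudin of endothelium, rose from 19.6 ± 1.64 to 34.3 ± 4.66 CPM, and Postn, a matricellular protein, from 39.6 ± 4.34 to 81.8 ± 18.6 CPM. Among 18 tested genes of epithelia, the epidermal-type list, 5 rose: Sprr1a, Sprr1b, Anxa10, Krt19 and S100a11. All of these calls held without any 1 library. The list's median log2 change was 0.70, also with Sprr1b set at its bound. Another 15 genes of that list were too low to test, so the count does not describe the whole list. The filter keeps a gene that is high in either group. Sprr1b, at 0 counts after sham, and Anxa10, at up to 0.115 CPM after sham, entered the test only through the CCI libraries. The count, the median and the held calls therefore rest in part on genes let in by their rise, and are no support for a change of the list.

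Stress and cell-cycle genes rose in part. Among 36 stress and cell-death genes 7 rose, 19.4% against 3.44% of all tested genes. Hrk, a pro-apoptotic BH3 protein of neurons, rose from 0.417 ± 0.249 to 5.06 ± 1.96 CPM (log2 3.61 ± 0.41), Gadd45a, a stress sensor, from 15.1 ± 0.978 to 41.1 ± 8.34 CPM and Cdkn1a, the cell-cycle inhibitor p21, from 127 ± 10.4 to 225 ± 26.9 CPM. Srxn1, a sulfiredoxin, rose by log2 0.63 ± 0.06, and Nos1, neuronal nitric oxide synthase, fell from 44.6 ± 9.20 to 29.1 ± 2.19 CPM. Ccnd1, encoding cyclin D1, rose from 7.01 ± 0.843 to 11.8 ± 2.54 CPM, while Ccnb1 and Cdk1, needed for mitosis, rose by log2 1.14 ± 0.29 (lost without CCI 1, 4 or 5 or sham 2 or 4, adjusted p up to 0.0975) and 0.88 ± 0.25 (lost without CCI 1, 2, 3, 4 or 5 or sham 1, 3 or 4, adjusted p up to 0.15). Nos1, Ccnb1 and Cdk1 did not pass in the edgeR fit over all 17 libraries (adjusted p = 0.0537, 0.499 and 0.525). Cdk1 missed the threshold with limma-voom (adjusted p = 0.0605).

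Clock genes were the list with the largest share lower, 9 of 23, against 2 higher. The 9 include Tsc22d3, which is not a component of the clock itself. Dbp, an output factor of the clock, had 26.9, 27.7, 25, 31.9 and 30.3 CPM after sham and 8.37, 9.03, 10.4, 10.3 and 9.59 CPM after CCI. The groups were far apart and CCI library 3 did not stand apart (log2 -1.57 ± 0.10, edgeR adjusted p = 2.27e-08). Ciart fell from 9.64 ± 1.75 to 3.29 ± 0.604 CPM, Nr1d1, a repressor of Bmal1, from 43.4 ± 6.42 to 20.4 ± 2.52 CPM and Per3 from 10.4 ± 1.27 to 5.63 ± 0.819 CPM. Smaller falls were those of Tef (log2 -0.30 ± 0.05), Nr1d2 (-0.43 ± 0.09), Bhlhe40 (-0.33 ± 0.08), Tsc22d3 (-0.24 ± 0.06, lost without CCI 2, adjusted p 0.0528) and Per2 (-0.63 ± 0.18, lost without CCI 1, 2, 4 or 5 or sham 2, 3, 4 or 5, adjusted p up to 0.149). Bmal1, which stands opposite to Dbp, Nr1d1 and Per3 in the daily cycle, rose from 3.02 ± 1.08 to 8.76 ± 1.68 CPM (log2 1.53 ± 0.22). Clock stood at 31.4 ± 2.77 and 30.5 ± 1.67 CPM (edgeR adjusted p = 0.875). The labels do not give the hour of day at which ganglia were taken. The call of Per2 was lost in the edgeR fit over all 17 libraries (adjusted p = 0.0524).

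The largest falls outside the clock were in genes with low levels. Cidea, a lipid droplet protein of fat cells, went from 6.02, 4.53, 2.09, 1.88 and 3.06 CPM after sham to 1.22, 1.32, 1.15, 1.06 and 1.01 CPM after CCI, lower in every CCI library (log2 -1.61 ± 0.30, edgeR adjusted p = 0.00248). Pck1, a gluconeogenic enzyme, fell by 2.52 on the log2 scale, with sham library 3 at 3.39 CPM and the other sham libraries at 0.44 to 0.81 CPM, a call lost without CCI 1 or 5 or sham 3, adjusted p up to 0.131. Markers of muscle, fat and blood summed to 331 to 633 CPM after sham and 171 to 496 CPM after CCI, with Adipoq at up to 4.4 CPM, in sham library 3. Their part in these falls was not tested. Pck1 did not pass in the edgeR fit over all 17 libraries (adjusted p = 0.103).

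The 5 lncRNAs with the smallest p all rose. Gm72864 rose from 0.915 ± 0.261 to 6.07 ± 1.42 CPM, Gm4208 from 0.790 ± 0.304 to 5.29 ± 1.24 CPM and Gm57142 from 0.114 ± 0.0532 to 2.13 ± 0.805 CPM. C030004G16Rik and Gm31831 were near 0 after sham and reached 2.29 ± 1.06 and 1.70 ± 0.635 CPM.

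The CCI libraries differed in how far they had moved. On a scale where 0 is the sham mean and 1 the CCI mean of log2(CPM + 0.1), the median position over the 697 higher genes was 0.66 for CCI library 3 and 1.01 to 1.16 for the others, and over the 351 lower genes 0.58 against 0.995 to 1.24. Library 3 had the lowest position in all 20 lists with 5 or more called genes. It stood at 0.32 for macrophage markers, at 0.38 for voltage-gated potassium channels, at 0.64 for axon regrowth effectors and at 0.77 for clock genes. Without it, edgeR called 1399 genes, 863 of them higher. Leaving out any other library gave 585 to 1154 calls.

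**Figure D5:**
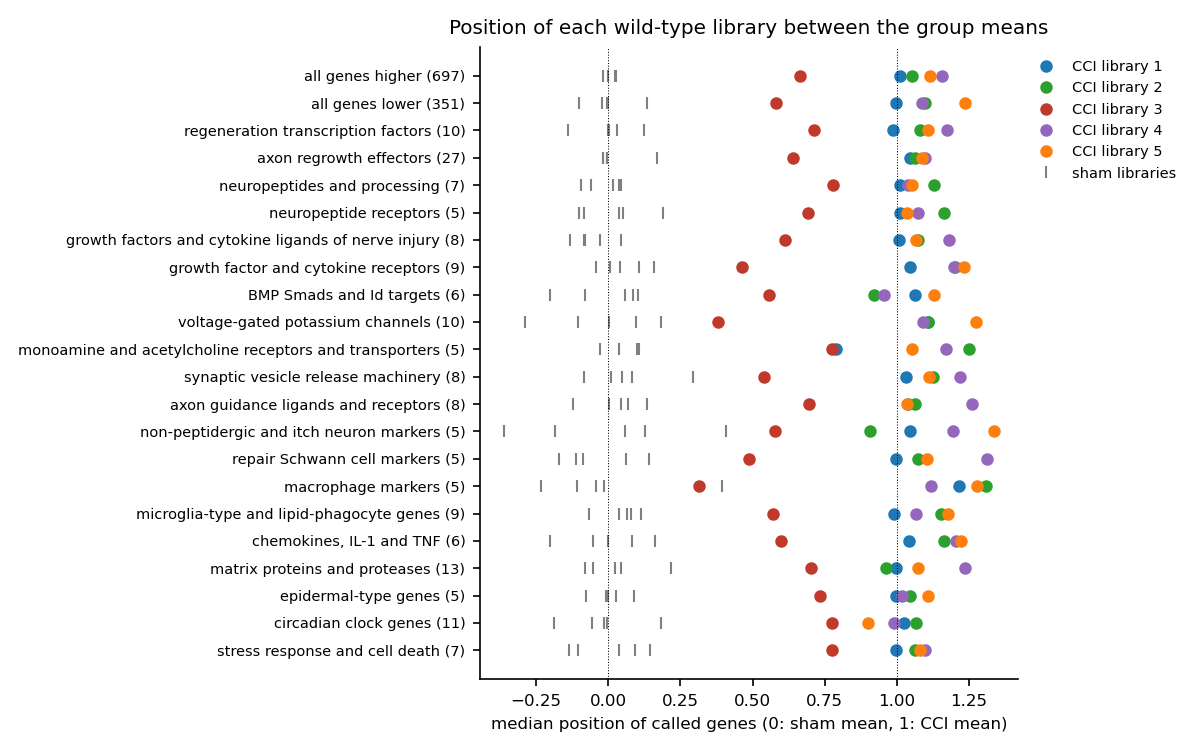
Median position of each library between the sham mean (0) and the CCI mean (1) over the called genes of each set (number in brackets), with CCI libraries as coloured points and sham libraries as grey ticks. CCI library 3 (red) is the lowest CCI library in every set, at 0.66 for all higher genes.

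Whether the injury response depended on genotype was tested as the interaction over all 17 libraries. No gene of 23972 passed an adjusted p of 0.05 in edgeR (0%), where 1407 had an unadjusted p under 0.05 and the smallest adjusted p was 0.102. DESeq2 called 21, and edgeR without a low-count filter 77. Dbp fell in wild type and had a log2 change of -0.22 ± 0.18 (SE) in the knockout-labelled libraries, a difference of 1.34 ± 0.23 with an edgeR adjusted p of 0.102. Smad6 changed by 1.17 ± 0.32 there, a difference of 2.29 ± 0.42 (edgeR adjusted p = 0.102), and Sprr1a by 2.35 ± 1.01, a difference of -7.56 ± 1.74 (edgeR adjusted p = 0.547). The 4 sham knockout-labelled libraries themselves held 96.9, 45.5, 0.839 and 1.52 CPM of Sprr1a and the 3 CCI ones 266, 87.9 and 198 CPM. The first 2 of these sham libraries stood far above the other 2.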

How the data were processed

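RNA from the ganglia was isolated with the PicoPure kit and copied with SMART-Seq v4, which keeps no strand, per the labels' protocols. The submitters' processing notes name bcl2fastq 2.20.0.422, STAR 2.7.11a and the build GRCm39; for the counter, its settings and the annotation release, nothing is stated there or in the labels. The authors deposited raw counts per gene for each library, and these were used as deposited after removing 5 summary lines; no-feature reads came to 4.18 to 4.55% and ambiguous reads to 7.63 to 8.14% of each wild-type library. Replicates are separate samples by their labels; nothing says they are separate animals, so the p-values measure the spread between these samples, which may be technical.

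The 10 wild-type libraries were fitted in edgeR 4.0.16 (R 4.3.3) with TMM scaling, filterByExpr (minimum count 10, minimum total 15), robust quasi-likelihood and Benjamini-Hochberg adjustment at 0.05 over 20269 genes, with no minimum fold. The standard error is the log2 change divided by the square root of F. CPM are TMM-scaled. limma 3.58.1 and DESeq2 1.42.0 served as alternatives. On simulated counts for 19794 genes, 89% of 100 genes changed 2-fold and 100% of 100 changed 4-fold were recovered, with 3.08% false calls. The changed genes were drawn only from those with a mean of at least 100 counts. Each gene was given the spread of the trend over level, with no spread of its own and no deviating library. Recovery of genes with fewer counts, and false calls under a wider spread, were not simulated. Promoters were read from GRCm39 at GENCODE M39 starts.

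The comparison, the 54 gene lists and the rule for named genes were chosen with earlier results of these data known, so lists are described by counts and medians. The rule took the 15 largest rises and 15 largest falls among protein-coding genes of at least 1 CPM without overlap, the 10 smallest p in each direction at 5 CPM or more, the 10 largest gains and losses in CPM, up to 6 called members per list and described family members, Atf3, Sprr1a, Gal, Npy and Csf1, the 5 lncRNAs with the smallest p, and genes with at most 3 counts after sham. Alternatives were other scaling, filters, tests, a fit over all 17 libraries, a replicate block and leaving out each library. Some genes that the rule took are not reported here.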

Additional observations from a re-analysis of the deposited data

Results flagged for a closer look

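The highest or lowest library of a group stood apart from the other 4, with a gap of more than 0.71 of the group's range, in 49 of 438 groups of values examined, where chance alone gives about 5% of groups. Gap and range were taken on log2(CPM + 0.1) for genes and on the log2 of the summed CPM for lists. The values printed below are plain CPM, on which the gap can be a smaller part of the range. CCI library 3 was the lowest CCI library for many genes that rose. It held 19.6 CPM for Acvr1 against 31.3 to 34.7 CPM in the others, 103 CPM for Cacna2d1 against 148 to 165 CPM in the others, and 154 CPM for Camk1 against 188 to 195 CPM in the others. The same library stood at 17.4 CPM for Cckbr against 37.6 to 48.2 CPM in the others, 13.5 CPM for Csf1r against 26.1 to 28.9 CPM in the others, and 26.5 CPM for Gadd45a against 43.5 to 47.5 CPM in the others. Further values were 87.7 CPM for Galnt9 against 105 to 113 CPM in the others, 493 CPM for Gap43 against 616 to 638 CPM in the others, and 133 CPM for Gfra1 against 183 to 206 CPM in the others. Lower again than the rest were its 280.5 CPM for Itga7 against 339 to 357 CPM in the others, 16.6 CPM for Lmo7 against 27.7 to 31.1 CPM in the others, and 110.2 CPM for Nts against 202 to 243 CPM in the others. Its level was 119 CPM for Plin2 against 169 to 189 CPM in the others, 279.9 CPM for Serpinb1a against 376 to 419 CPM in the others, and 26.2 CPM for Sox11 against 40.3 to 47.5 CPM in the others. There it held 61.5 CPM for Tmtc4 against 72.7 to 74.2 CPM in the others, 16.4 CPM for Tubb6 against 32.9 to 36.9 CPM in the others, and 1.83 CPM for Ucn against 5.08 to 7.37 CPM in the others. Among genes that fell, library 3 was the highest CCI library, at 193 CPM for Drgx against 163 to 171 CPM in the others, 93.3 CPM for Kcnmb1 against 64.1 to 67.6 CPM in the others, and 237 CPM for Tmem255a against 202 to 208 CPM in the others.

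Sham library 1 was the highest of its group at 32.1 CPM for Csf1 against 14.1 to 15.8 CPM in the others, and 18.6 CPM for Csf1r against 11.1 to 12.8 CPM in the others. Sham library 1 was the lowest of its group at 1.46 CPM for Syt17 against 3.14 to 4.02 CPM in the others. Sham library 2 was the highest of its group at 42.6 CPM for Bdnf against 30.2 to 30.8 CPM in the others. Sham library 3 was the highest of its group at 413 CPM for Fabp7 against 302 to 316 CPM in the others, 3.39 CPM for Pck1 against 0.442 to 0.807 CPM in the others, and 291 CPM for Trpv1 against 138 to 170.4 CPM in the others. Sham library 3 was the lowest of its group at 3.63 CPM for Gabrb2 against 4.89 to 5.42 CPM in the others, 68.9 CPM for Gfra1 against 91.3 to 99.3 CPM in the others, and 94.6 CPM for Kcnk1 against 129 to 140.1 CPM in the others. Sham library 4 was the lowest of its group at 100.1 CPM for Camk1 against 108 to 110.2 CPM in the others. Sham library 5 was the lowest of its group at 169.5 CPM for Piezo2 against 189 to 195 CPM in the others. CCI library 2 was the lowest of its group at 0.0348 CPM for Pck1 against 0.199 to 0.297 CPM in the others. CCI library 4 was the highest of its group at 4.84 CPM for Kcnk16 against 1.83 to 2.31 CPM in the others. C030004G16Rik was read in sham library 4 at 0.0545 CPM and listed at 0 in the other sham libraries. Gm31831 was read in sham library 3 at 0.0675 CPM and listed at 0 in the other sham libraries.

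Summed over the axon regrowth effectors list, CCI library 3 was the lowest of its group, at 21431 CPM against 23034 to 23355 CPM. For the BMP Smads and Id targets list, CCI library 3 was the lowest of its group, at 471 CPM against 507 to 520.3 CPM. In the other potassium channels list, CCI library 3 was the highest of its group, at 684 CPM against 582 to 606 CPM. Over the GABA and glycine receptors list, CCI library 5 was the lowest of its group, at 974 CPM against 1023 to 1044 CPM. Summed over the peptidergic nociceptor markers list, sham library 3 was the highest of its group, at 8263 CPM against 5822 to 6291 CPM. For the repair Schwann cell markers list, sham library 3 was the highest of its group, at 2365 CPM against 2023 to 2095 CPM. In the chemokines, IL-1 and TNF list, CCI library 3 was the lowest of its group, at 566 CPM against 636 to 665 CPM. Over the MHC presentation list, sham library 1 was the highest of its group, at 2045 CPM against 954 to 1136 CPM. Summed over the interferon-stimulated genes list, sham library 1 was the highest of its group, at 2406 CPM against 614 to 721 CPM. For the matrix proteins and proteases list, sham library 2 was the lowest of its group, at 4481 CPM against 4818 to 4953 CPM. In the epidermal-type genes list, sham library 4 was the lowest of its group, at 719 CPM against 854 to 893 CPM. Over the spinal cord glia markers list, sham library 5 was the highest of its group, at 213 CPM against 86 to 88.1 CPM.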

How the results depend on the processing

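The number of genes that edgeR called in the wild-type comparison (1048, 697 higher and 351 lower) moved with the test and the libraries used. DESeq2 gave 558 lower genes, the fit over all 17 libraries 171 lower of 733 called, and edgeR without a low-count filter 1579 called with 536 lower. Of the 1048, 1035 were also called by DESeq2, 666 in the fit over all 17 libraries and 1019 by limma-voom. Leaving out 1 library at a time gave 585 to 1399 called, 459 to 863 higher and 126 to 536 lower, the fewest without CCI library 5 (585), then 4 (621), 1 (684) and 2 (688), and the most without CCI library 3. Of the 202 genes chosen by the naming rule, 139 kept their call in all 10 of these fits. Among genes with values in the text, those whose change took either sign had not passed: when 1 library was left out, the log2 change ran from -0.064 to 0.011 for Clock, -0.055 to 0.077 for Gja1, -0.068 to 0.106 for Id3, -0.0072 to 0.178 for Mbp and -0.082 to 0.046 for P2rx3. With the replicate number as a block edgeR called 1036 genes, 687 higher and 349 lower, of which 881 were among the 1048. Of 165 called genes named in the text, 16 were lost with the block, and 3 of 23 others passed: Calca, Tac1 and Scn11a. The calls lost were those of Cdk1, Csf1, Entpd2, Erbb3, Fstl1, Gabrb2, Gal, Kcnk18, Kcnmb1, Kif5b, Ntsr2, Per2, S100a11, Tnc, Vipr2 and Wrnip1. Erbb3 and S100a11 had an adjusted p of 0.0561 and 0.0627 in that edgeR fit. The same-numbered libraries are not known to be paired, their deviations correlated at -0.01 to 0.11, and 2 of the 5 sham libraries correlated best with the CCI library of their own number. The interaction with genotype, 0 genes in edgeR, gave 77 without a low-count filter and 21 with DESeq2. The cause of these shifts was not tested. The depth left genes under a few counts per library untested, and limits the log2 changes of genes near 0 after sham.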

Other observations

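Several genes outside the lists were among those with the smallest p or the largest change in level. Phlda1, a pleckstrin-like protein, rose from 6.77 ± 0.510 to 23.8 ± 4.79 CPM (log2 1.81 ± 0.13, edgeR adjusted p = 1.19e-07), with each CCI library above every sham library. Camk1, a calmodulin-dependent kinase, had 110.2, 109.9, 108, 100.1 and 109.7 CPM after sham and 188, 189, 154, 188 and 195 CPM after CCI (log2 0.76 ± 0.06), again without overlap. Phactr2, an actin and phosphatase regulator, rose from 141 ± 1.72 to 225 ± 18.3 CPM, Tmtc4 from 40.6 ± 2.04 to 70.9 ± 5.30 CPM and Galnt9, a glycosyltransferase, from 61.3 ± 3.99 to 104 ± 9.83 CPM. Serpinb1a, a serine protease inhibitor, rose from 143 ± 24.3 to 374 ± 55.2 CPM (log2 1.38 ± 0.15). Reads in the stretch that it shares with the overlapping Wrnip1 cannot be told apart.

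Among falls outside the lists, Ptger3, a prostaglandin E2 receptor of nociceptors, went from 45.7 ± 3.37 to 33 ± 2.79 CPM (log2 -0.47 ± 0.07), Plcd4, a phospholipase C, from 60.6 ± 5.59 to 45.1 ± 2.31 CPM and Tmem255a from 274 ± 21.3 to 211 ± 14.8 CPM. Dgkh, a diacylglycerol kinase, fell from 731 ± 50.1 to 589.9 ± 24.9 CPM (log2 -0.31 ± 0.05). Trarg1 and Parm1 fell by 0.31 and 0.24 on the log2 scale. The falls of Fstl1, which encodes a follistatin-like protein (log2 -0.17 ± 0.05), and of Fez1, a kinesin adaptor (log2 -0.21 ± 0.06), were smaller, and both calls were lost without CCI 1, 2, 4 or 5 and some sham libraries, with an adjusted p of up to 0.116 and 0.11. Plcd4, Fstl1 and Fez1 missed the threshold in the edgeR fit over all 17 libraries (adjusted p = 0.202, 0.164 and 0.0578).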
